A study of Mus musculus with 8 samples.

Results

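The genes described here encode the proteins of the spliceosome's small nuclear ribonucleoproteins (snRNPs), the factors that recognise the branch point and the end of the intron, the SR proteins and the heterogeneous nuclear ribonucleoproteins (hnRNPs). They were taken by name, as every non-control probe whose gene name starts with Snrp, Sf3a, Sf3b, U2af, Srsf, Sfrs or Hnrnp, together with Puf60. This gave 99 probes of 54 genes, out of 39429 probes with 30175 gene names on the array. RNA was measured from the striatum of 4 adult male mice labelled Brd2+/- (heterozygous) and 4 labelled wildtype. The heterozygous mice carried 1 gene-trap allele of Brd2, which encodes a reader of acetylated histones, and genotypes were called by PCR across the trap junction. Mice of both genotypes were C57Bl/6j males of backcross generation 7, born to heterozygous parents, with a background of about 99% C57Bl/6J on average. Each Agilent array held RNA from 2 mice of the same genotype, replicates 1 and 2 or replicates 3 and 4, the first of each pair in Cy3 and the second in Cy5. Genotype therefore varied between 4 arrays only, 2 a genotype, and it also followed position on the slide (positions 2 and 1 for the heterozygous arrays, positions 4 and 3 for the wildtype arrays), so genotype and position cannot be told apart.

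Introns are removed by the spliceosome, which assembles anew on each pre-mRNA. The U1 snRNP pairs with the start of the intron, U2AF and Puf60 bind the pyrimidine tract near its end, and the U2 snRNP, with its SF3a and SF3b subcomplexes, then pairs with the branch point. SR proteins bind mostly exonic sequences and recruit these factors, while hnRNP proteins coat nascent RNA and often oppose exon inclusion. Neurons are known for extensive alternative splicing, and several of these proteins have neuronal forms, such as the Sm protein encoded by Snrpn.

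The probes are 60 bases long and match 1 short stretch of a transcript, so a probe reads only the isoforms that hold that stretch. The 3 sequences below are shown because the results turn on them: the Hnrnpk pair lies end to end on the transcript and gave unequal readings, while the Hnrnpf probe gave the opposite sign to a second probe of its gene. They are printed in the sense direction as the scanner files give them, on mm9. The Hnrnpk probes match chr13:58494618-58494677 and chr13:58494558-58494617 on the minus strand, and the Hnrnpf probe matches chr6:117873933-117873992 on the plus strand. Capitals mark the 1 and 2 bases of the codon that the boundary between the Hnrnpk probes splits. Joined, that pair reads 120 bases with 1 reading frame free of stop codons throughout. An open frame also runs through the Hnrnpf probe.
Hnrnpk A_55_P2107855: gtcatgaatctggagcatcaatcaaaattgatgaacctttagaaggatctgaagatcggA
Hnrnpk A_55_P2107854: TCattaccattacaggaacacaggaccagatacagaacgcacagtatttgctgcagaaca
Hnrnpf A_52_P141161: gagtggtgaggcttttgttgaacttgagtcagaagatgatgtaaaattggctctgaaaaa

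Between 41.7% and 63.2% of all probes stood well above background in a sample, with a median spot at 3.65 to 10.4 times the background and a lower ratio in each Cy5 sample than in any Cy3 sample. The tissue label reads striatum of prefrontal cortex, and another label calls the tissue heart left atrium. The 11 striatal projection neuron genes examined were above background in all 8 samples, while Nppb, Actc1 and Myl7 of 9 atrial muscle genes were above background in none. Of 7 cortical excitatory neuron genes, 4 were above background in all 8 samples. Some sums of marker levels differed between the genotypes. Summed over the list on the linear scale, the striatal genes ranged from 318449 to 453367 in heterozygous samples and from 139085 to 319898 in wildtype samples, with a slight overlap. The atrial genes ranged from 1237 to 1650 in heterozygous samples and from 1681 to 4948 in wildtype samples, with 2 of the 9 above background in all 8. The 6 oligodendrocyte genes, all above background in all 8 samples, ranged from 133858 to 190953 in heterozygous samples and from 81905 to 106262 in wildtype samples. A list of 6 genes of dividing cells and immature neurons held Mki67, Top2a, Cdk1, Ccnb1, Birc5 and Dcx. Its sums ranged from 706 to 779 in heterozygous samples and from 890 to 1366 in wildtype samples. None of the 6 was above background in all 8 samples, and Cdk1 was in none. The sums of cortical neuron genes ranged from 2104 to 3757 in heterozygous samples and from 2942 to 16529 in wildtype samples. Those sums and the sums of astrocyte, microglia, endothelium, choroid plexus and blood genes overlapped between the genotypes. Not every gene of a list went the way of its sum. Higher in heterozygous samples were 9 of 11 striatal, 4 of 6 oligodendrocyte, 2 of 9 atrial and 1 of 7 cortical genes. In the list with dividing cells, 1 of 6 was higher. The part of these shifts in the differences below was not tested, and in bulk tissue fewer cells of a type and less RNA per cell cannot be told apart. Brd2 itself showed no reduction in the mice labelled heterozygous: its 2 tested probes differed by 0.88 (A_55_P1953545) and 0.28 (A_55_P1958678) on the log2 scale, heterozygous minus wildtype. Where these probes lie relative to the trap was not analysed here, so they do not check the genotype, and "heterozygous" below means the samples so labelled.

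No splicing gene passed the test for a genotype difference. Of the 99 probes, 93 cleared the background in 4 or more of the 8 samples and 6 were too dim. A further 31 of the 93 (33.3%, against 17.4% of all probes at that level) had a spot flagged as an outlier in at least 1 sample, which left 62 probes of 44 genes to test. None of the 62 had entered through 1 genotype alone. With limma and Benjamini-Hochberg adjustment over 18432 probes, 0 members and 0 probes in all (0%) reached an adjusted p under 0.05, with 0.433 as the lowest value. Before adjustment, 8 members (12.9%) had a p under 0.05, against 1486 probes in all (8.06%). Of these, 2 members were higher in heterozygous samples (3.83% of all probes were) and 6 were lower (4.23% of all probes were). Since genotype varied only between arrays and the fit counts every mouse, these p-values may be too small.

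The 62 probes were split nearly evenly, with 32 higher and 30 lower in heterozygous samples, and 47.5% of all probes were higher. Their median log2 difference, heterozygous minus wildtype, was 0.011, and that of all probes was -0.021. The median size of a difference, whatever its sign, was 0.290 among members and 0.254 among all probes. By class, the median was 0.19 for the 11 probes of core snRNP proteins, -0.15 for the 11 probes of SF3a, SF3b, U2AF and Puf60, -0.19 for the 16 probes of SR proteins and 0.12 for the 24 probes of hnRNP proteins. Single probes differed between the arrays of a genotype by 0.400 at the median for heterozygous and by 0.309 for wildtype. The class medians were not tested. The values of the 2 genotypes did not overlap for 13 members (21%), against 16.9% of all probes. Of the 13, 5 were higher in heterozygous samples (7.85% of all probes) and 8 were lower (9.09% of all probes).

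**Figure D1:**
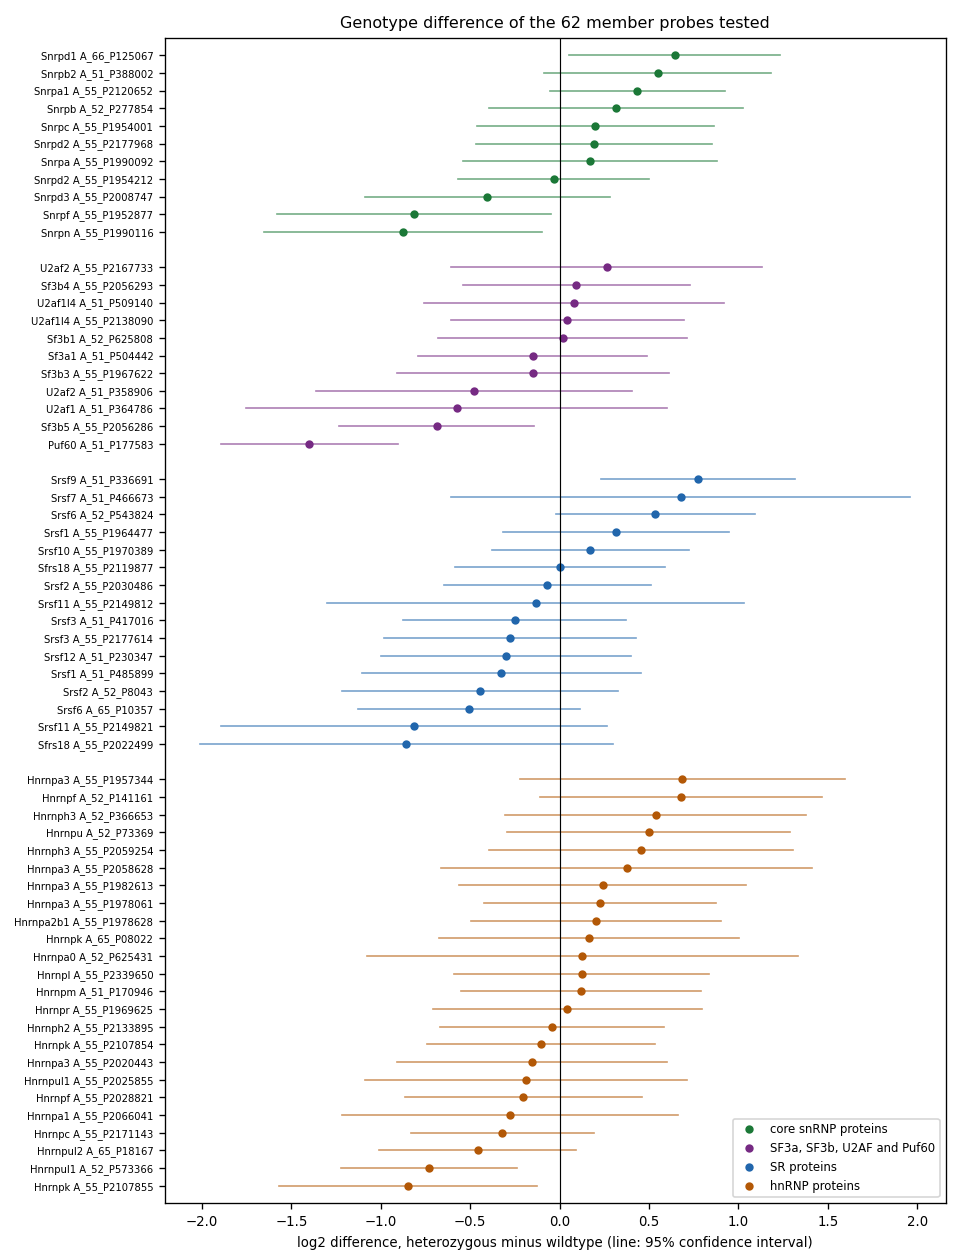
Log2 difference, heterozygous minus wildtype, of the 62 member probes tested, grouped by class, with points for the estimate and lines for the 95% confidence interval. Most intervals cross 0, and the Puf60 interval, from -1.90 to -0.91, lies farthest from it.

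The branch point and pyrimidine tract factors held the strongest single difference. Puf60, which binds the pyrimidine tract beside U2AF, read 11.53, 11.69, 11.75 and 11.79 in heterozygous replicates 1 to 4, against 13.03, 13.22, 12.99 and 13.13 in wildtype replicates 1 to 4 (normalized log2 intensity). Every heterozygous sample was more than 1 log2 unit below every wildtype sample, and the gap between arrays was 0.154 within the heterozygous genotype and 0.0624 within wildtype. The log2 difference was -1.40 (SE 0.22), a level 0.379 times that of wildtype, and it ranked 3 among all 18432 probes by unadjusted p (1.25e-04, adjusted p = 0.433). An exact two-sided permutation test over samples gave p = 0.0286 and over arrays p = 0.333, each the smallest the design allows. Within Cy3 samples the difference was -1.37 and within Cy5 samples -1.43. It was -1.03 after a smooth trend over the array surface was removed. Puf60 is read by this 1 probe only, so its value has no check from a second probe.

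Sf3b5, a small subunit of SF3b, read 12.62, 12.51, 12.96 and 12.93 in heterozygous samples, against 13.50, 13.56, 13.43 and 13.29 in wildtype samples (A_55_P2056286, chr10:12728767-12728826, plus strand, mm9). The groups did not overlap, and the log2 difference was -0.69 (SE 0.24, adjusted p = 0.523). A second Sf3b5 probe, 10 bases downstream, had a flagged spot. With that spot kept it read 11.71, 11.54, 11.92 and 11.89 in heterozygous samples and 13.00, 13.01, 13.10 and 12.96 in wildtype samples, a difference of -1.25. Both Sf3b5 probes were thus lower in every heterozygous sample than in any wildtype sample.

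The other subunits of this class gave small or scattered differences. Sf3b1, the subunit that holds the branch point helix, differed by 0.017 (SE 0.31), Sf3a1 by -0.15 (SE 0.28), Sf3b3 by -0.15 (A_55_P1967622) and Sf3b4 by 0.094. U2af1, the small U2AF subunit that reads the last bases of the intron, differed by -0.58 (SE 0.52) at probe A_51_P364786. This probe ranged from 7.41 to 9.04 in heterozygous samples and from 7.85 to 9.06 in wildtype samples. A brighter U2af1 probe, A_55_P2059025, had 2 flagged samples and differed by 0.063 with these spots kept, with overlap. The 2 probes of U2af2, the large subunit, differed in sign at -0.48 (A_51_P358906) and 0.26 (A_55_P2167733). The 2 probes of U2af1l4, a paralogue of U2af1, differed by 0.043 and 0.078. None of these differences reached an unadjusted p under 0.05.

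Flagged spots removed 7 of the 18 probes of this class, among them each probe of Sf3a2, Sf3a3 and Sf3b2. With flagged spots kept and the fit repeated over 22321 probes, 0 of all probes (0%) passed. In that fit 5 of the 18 were lower at an unadjusted p under 0.05 and 0 were higher, against 4.31% and 4.53% of all probes (8.84% together). The 5 were Puf60, both Sf3b5 probes, Sf3a3 (difference -0.84) and the second Sf3b3 probe (A_55_P2056300, difference -0.79). Sf3a3, a subunit of SF3a, then read 11.61, 11.53, 11.36 and 11.39 in heterozygous samples and 12.27, 12.20, 12.35 and 12.44 in wildtype samples, with no overlap. In all, 6 of the 18 were lower with no overlap, against 9.11% of all probes. Sf3b2, the other one, differed by -0.37, and Sf3a2 by -0.23 with overlap. The flagged probes of Sf3b4 (A_55_P1996223) and U2af1 (A_55_P2059025) were higher in heterozygous samples, by 0.40 and 0.063, both with overlap. The 2 Sf3b3 probes did not give like values (-0.15 and -0.79). The 7 probes left out for flagged spots carried a flag from the scanner software in 1 to 4 samples each. For the second Sf3b3 probe the 4 flagged samples were all the heterozygous ones, so its difference rests on flagged spots in that genotype. In the same fit the SR proteins had 3 probes higher and 0 lower at an unadjusted p under 0.05, the core snRNP proteins 3 higher and 2 lower, the hnRNP proteins 1 higher and 2 lower, and all 93 members 7 higher and 9 lower (17.2%).

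**Figure D2:**
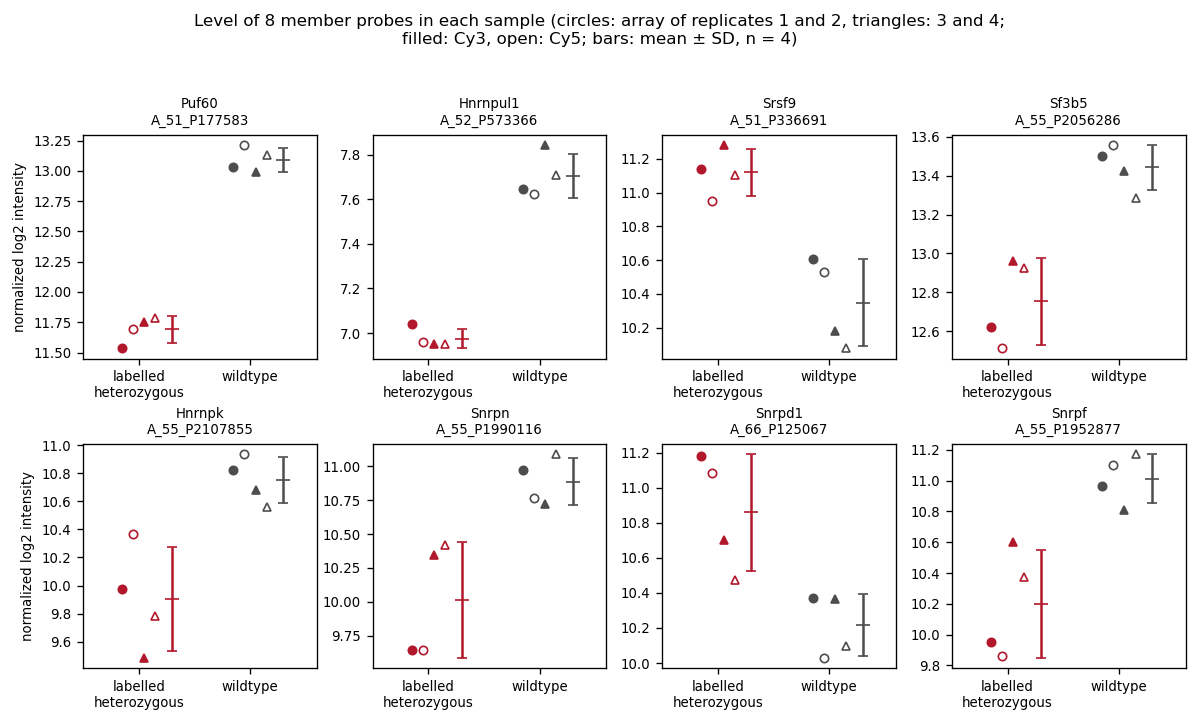
Normalized log2 intensity in each sample of the 8 member probes with an unadjusted p under 0.05, heterozygous left and wildtype right in each panel, with bars for the mean and SD of 4 samples. The genotypes do not overlap in any panel, and the 2 mice of an array lie close together in most.

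Among the core snRNP proteins, 7 probes were higher and 4 lower in heterozygous samples, and none passed. Snrpd1, one of the Sm proteins that form the ring around the snRNA, read 11.18, 11.08, 10.70 and 10.47 in heterozygous samples, against 10.37, 10.03, 10.36 and 10.10 in wildtype samples. The groups did not overlap, and the difference was 0.64 (SE 0.26, adjusted p = 0.599). A second Snrpd1 probe, with 4 flagged samples, differed by 0.50 and its groups overlapped.

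Snrpf, the Sm F protein, lay in the other direction, at 9.95, 9.86, 10.60 and 10.37 in heterozygous samples and 10.97, 11.10, 10.81 and 11.17 in wildtype samples. It differed by -0.81 (SE 0.34, adjusted p = 0.603) with no overlap. Snrpd1 and Snrpf are parts of the same ring, and the readings of its other members also went in both directions. Snrpb differed by 0.32 (SE 0.31), Snrpd3 by -0.40 (SE 0.30) and the Snrpd2 probes by 0.19 and -0.033. With flagged spots kept, the Snrpe probes differed by 0.85 with no overlap and by 0.17 with overlap, and both Snrpg probes by -0.41.

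Snrpn, the neuronal Sm protein related to Snrpb, read 9.64, 9.64, 10.34 and 10.42 in heterozygous samples, against 10.98, 10.77, 10.72 and 11.09 in wildtype samples (A_55_P1990116, chr7:67127426-67127485, minus strand, mm9). The groups did not overlap, though the heterozygous arrays lay 0.738 apart, and the difference was -0.88 (SE 0.34, adjusted p = 0.577). The other 2 Snrpn probes, flagged in 5 and 6 samples, differed by -0.79 (A_55_P1998194) and -0.039 (A_52_P354390) with these spots kept, and their groups overlapped. The transcripts that all 3 probes match are shared with Snurf, which is encoded on the same RNA, so the genes cannot be told apart here.

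The proteins particular to 1 snRNP gave differences of 0.55 for Snrpb2 and 0.44 for Snrpa1 of the U2 snRNP, and of 0.17 for Snrpa and 0.20 for Snrpc of the U1 snRNP. Snrpa1 read 9.94, 9.77, 9.85 and 9.72 in heterozygous samples and 9.38, 9.25, 9.48 and 9.43 in wildtype samples (A_55_P2120652), with no overlap and an adjusted p of 0.683. Snrpb2 ranged from 10.73 to 11.18 in heterozygous samples and from 9.91 to 10.91 in wildtype samples, with overlap.

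Among the SR proteins, 6 probes were higher and 10 lower, and none passed. Srsf9, an SR protein with a short RS domain, read 11.14, 10.95, 11.28 and 11.10 in heterozygous samples, against 10.61, 10.53, 10.18 and 10.08 in wildtype samples. Every heterozygous sample was above every wildtype sample, and the difference was 0.77 (SE 0.24, adjusted p = 0.489). Its size depended on the signal used, at 0.82 within Cy3 samples, 0.72 within Cy5 samples and 0.031 with the scanner software's processed signals, where the median of all probes was -0.53.

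Srsf6 gave opposite readings. Its probe A_52_P543824 read 9.75, 9.81, 9.68 and 9.54 in heterozygous samples and 9.26, 9.20, 9.00 and 9.17 in wildtype samples, a difference of 0.54 (SE 0.25). Its probe A_65_P10357, 1884 bases upstream on the genome, read 10.63, 10.28, 10.95 and 10.31 in heterozygous samples and 11.02, 10.82, 11.33 and 11.02 in wildtype samples, a difference of -0.51 (SE 0.28). The first probe's groups did not overlap and the second's did, and their differences lay more than 1 log2 unit apart.

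Srsf11 and Sfrs18, genes of proteins rich in arginine and serine, had probes with a wide split between the wildtype arrays. These arrays lay 1.57 and 1.42 apart for the 2 tested Srsf11 probes and 1.18 apart for 1 Sfrs18 probe. Each of these gaps exceeded the genotype difference of its probe. Srsf11 probe A_55_P2149821 read 11.14, 11.08, 10.74 and 10.32 in heterozygous samples and 10.96, 10.73, 12.43 and 12.41 in wildtype samples, so that wildtype replicates 3 and 4 alone stood high. Its other tested probe, A_55_P2149812, had the same wildtype split, at 6.94 and 6.86 against 8.27 and 8.37. Sfrs18 probe A_55_P2022499 read 10.87, 10.85, 10.74 and 9.84 in heterozygous samples and 11.03, 10.65, 12.09 and 11.94 in wildtype samples. Their differences were -0.82 (SE 0.48), -0.13 (SE 0.52) and -0.86 (SE 0.51). The second Sfrs18 probe, A_55_P2119877, had no such split, at 10.10, 10.25, 10.27 and 10.01 in heterozygous samples and 10.06, 10.09, 10.24 and 10.21 in wildtype samples (difference 0.0047, SE 0.26).

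Srsf7 had the widest such split, at 9.53, 9.31, 10.14 and 9.85 in heterozygous samples and 9.96, 10.07, 8.27 and 7.82 in wildtype samples (A_51_P466673). The wildtype arrays lay 1.97 apart and the genotype difference was 0.68 (SE 0.57). Its second probe, with 1 flagged sample, differed by -0.44 with that spot kept. The tested probes of the best known SR proteins did not reach an unadjusted p under 0.05. The Srsf1 probes differed by 0.32 and -0.33, the Srsf2 probes by -0.069 and -0.44, and the Srsf3 probes by -0.25 and -0.28. A further Srsf1 probe, with 1 flagged sample, differed by 0.91 with the spot kept, and its groups overlapped. A further Srsf3 probe, A_55_P1980125, also with 1 flagged sample, differed by -0.35 with the spot kept and with overlap. Srsf10 differed by 0.17 and Srsf12 by -0.30, and 5 of the 6 dim probes belong to this class. Srsf4 and Srsf5 had flagged spots in their only probe. With these kept, Srsf4 differed by 0.58 with no overlap and Srsf5 by -0.068 with overlap.

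**Figure D3:**
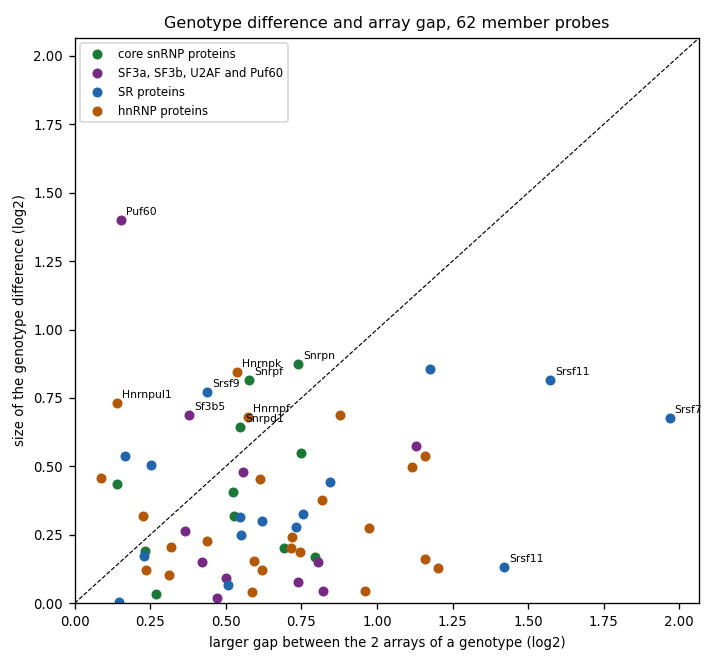
Size of the genotype difference (log2) against the larger of the 2 gaps between arrays of the same genotype (log2) for the 62 member probes tested, coloured by class, with a dashed line of equality. Puf60 lies farthest above the line, Srsf7 and both Srsf11 probes lie far below it, and 14 probes lie above it.

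Among the hnRNP proteins, 14 probes were higher and 10 lower, and none passed. Hnrnpk, a KH domain protein that binds cytidine-rich RNA, read 9.98, 10.37, 9.49 and 9.78 in heterozygous samples, against 10.82, 10.94, 10.68 and 10.56 in wildtype samples at probe A_55_P2107855. The groups did not overlap, and the difference was -0.85 (SE 0.32, adjusted p = 0.549). The probe that continues it without a gap, A_55_P2107854, read 12.50, 12.26, 11.98 and 12.16 in heterozygous samples and 12.32, 12.28, 12.46 and 12.24 in wildtype samples, a difference of -0.10 (SE 0.28). Another Hnrnpk probe, A_65_P08022, differed by 0.16 (SE 0.37). The 2 adjoining probes read neighbouring bases and the codon marked above lies across them, yet only the first separated the genotypes. The first probe is annotated with 3 RefSeq transcripts, of which 2 matched no current gene, and its neighbour with 1, which matched Hnrnpk. What the 2 unmatched ones are was not analysed. The difference between the probes' readings was itself not tested.

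Hnrnpul1, a relative of Hnrnpu, read 7.04, 6.96, 6.95 and 6.95 in heterozygous samples, against 7.65, 7.62, 7.84 and 7.71 in wildtype samples (A_52_P573366). The groups did not overlap, and the difference was -0.73 (SE 0.22, adjusted p = 0.479). This probe is dim and was well above background in 3 heterozygous and 4 wildtype samples, and its difference was -0.23 after the surface trend was removed. A brighter Hnrnpul1 probe, A_55_P2025855, differed by -0.19 (SE 0.40). Hnrnpul2 read 10.48, 10.52, 10.39 and 10.65 in heterozygous samples and 10.93, 10.92, 11.04 and 10.98 in wildtype samples, a difference of -0.46 (SE 0.24) with no overlap.

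Hnrnpc, which binds uridine tracts and competes with U2AF for them, read 13.33, 13.22, 13.56 and 13.44 in heterozygous samples and 13.59, 13.60, 13.87 and 13.77 in wildtype samples (A_55_P2171143). The groups did not overlap, by a margin of under 0.1, and the difference was -0.32 (SE 0.23). The second Hnrnpc probe, A_52_P218537, differed by 0.054 with overlap when its flagged spots were kept. Hnrnpf, which binds guanine tracts, read 8.03, 8.50, 7.97 and 8.21 in heterozygous samples and 7.81, 7.76, 7.27 and 7.15 in wildtype samples at the probe printed above, a difference of 0.68 (SE 0.35) with no overlap. Its second probe, A_55_P2028821, differed by -0.20 (SE 0.29), and its groups overlapped.

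The tested probes of the other hnRNP genes overlapped between the genotypes. Hnrnpu, a nuclear matrix protein, read 13.06, 12.94, 12.00 and 11.76 in heterozygous samples and 12.13, 11.73, 12.08 and 11.83 in wildtype samples, so that only the first heterozygous array stood high (difference 0.50, SE 0.35). Hnrnpm differed by 0.12 (SE 0.30). Hnrnpa2b1 differed by 0.20 (SE 0.31) at a dim probe, well above background in 3 heterozygous samples and 1 wildtype sample. Its brighter probe, A_55_P2017082, had 2 flagged samples and differed by 0.30 with these spots kept, with overlap. Hnrnpa1, an antagonist of SR proteins, differed by -0.28 (SE 0.41) at A_55_P2066041. Its brighter probe, A_55_P2029842, had 1 flagged sample and differed by 0.44 with that spot kept, with overlap. The Hnrnpa1 probes, and 3 of the 7 Hnrnpa3 probes, also match transcripts of the near-identical copies Gm5643, Gm10052 or Gm6793, so their values are uncertain. The 5 tested Hnrnpa3 probes ranged from -0.15 to 0.69, and the 2 with flagged spots differed by -1.14 (A_55_P2087225, with overlap) and 0.71 (A_55_P2031501, with no overlap) when these were kept. Hnrnph2, Hnrnpr, Hnrnpl and Hnrnpa0 differed by between -0.041 and 0.13, and the 2 probes of Hnrnph3 by 0.45 and 0.54. Hnrnpd, Hnrnpab and Hnrnph1 had a flagged spot in each of their probes. With these kept, Hnrnpd differed by 0.51, the Hnrnpab probes by 0.51 and -0.059, and Hnrnph1 by -0.27.

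Probes of the same gene often disagreed. Of 14 member genes with 2 or more tested probes, 8 (57.1%) had probes of opposite sign, against 51.4% of 2875 such genes on the whole array. Srsf6 and Hnrnpk had probes more than 1 log2 unit apart (14.3% of the 14, against 10.9% of all such genes). The median range between probes of a gene was 0.661 among members and 0.421 among all genes.

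Where probes overlapped, the readings could also differ. The 2 Snrpa1 probes share 53 bases. With flagged spots kept, the probe left out above, A_55_P2113208, read 10.48, 10.62, 10.56 and 10.45 in heterozygous samples and 9.39, 9.32, 8.20 and 8.16 in wildtype samples, a difference of 1.76, against 0.44 for its neighbour. Wildtype replicates 1 and 2 carried the flags, and without their array this probe passed the test at 2.35 (SE 0.26, limma adjusted p = 0.0394). In that fit wildtype is a single array, 22 probes passed in all, and the difference cannot be told apart from that array. The Snrpd2 probes that share 54 bases differed by 0.43 and 0.19, both with overlap. The first of these, A_55_P2088535, was flagged in 6 samples, and its value is with these spots kept.

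**Figure D4:**
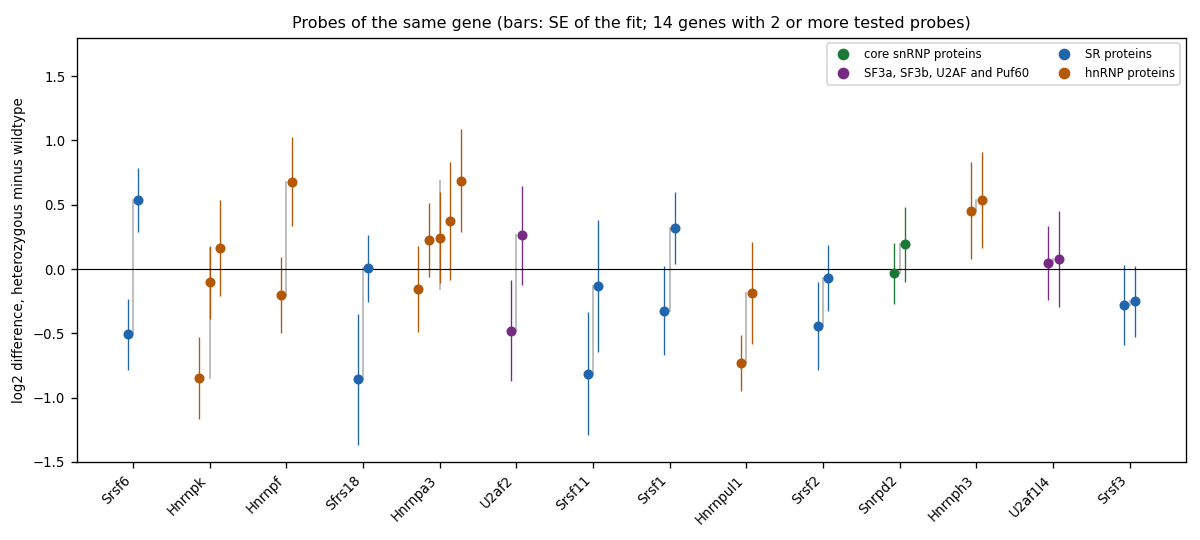
Log2 difference, heterozygous minus wildtype, of each tested probe of the 14 genes with 2 or more tested probes, ordered by the range between probes, with bars for the SE of the fit. Probes lie on both sides of 0 in 8 genes, with Srsf6 and Hnrnpk the widest apart.

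The genotype differences were set beside the spread between arrays of a genotype. For 14 of the 62 members (22.6%) the genotype difference exceeded the gap between arrays in both genotypes, and the share among all probes was also 22.6%. Across the member probes, 2 mice of the same array correlated at 0.987 to 0.993, mice of the same genotype on different arrays at 0.930 to 0.958, and mice of different genotypes at 0.911 to 0.960. The last 2 ranges overlap.

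Genes of the wider splicing machinery gave a like picture, and none passed. Of 58 probes of other snRNP and tri-snRNP proteins, 31 were higher and 27 lower in heterozygous samples, with a median of 0.016. At an unadjusted p under 0.05 there were 2 in each direction (6.9%, against 8.06% of all probes). Lsm2, a component of the Lsm ring of U6, differed by -0.89 (SE 0.27). Usp39, a tri-snRNP assembly factor, differed by -0.92 (SE 0.35) and Snrnp27 by 0.80 (SE 0.29). Of 82 probes of other splicing factors and helicases, 45 were higher and 37 lower, with a median of 0.040 and 3 in each direction at that level (7.32%, against 8.06% of all probes). Sugp1, which acts with SF3b1 at the branch point, differed by 0.98 (SE 0.27), Ccar1 by -0.97 (SE 0.35), and the 3 probes of Son, a nuclear speckle scaffold, by -0.71, -0.48 and -0.32.

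Of 75 probes of other splicing regulators, 37 were higher and 38 lower, with a median of -0.00286 and 6 and 5 at an unadjusted p under 0.05 (14.7% together, against 8.06% of all probes). Elavl3, a neuronal RNA-binding protein, differed by -0.78 (SE 0.26). The Qk probes, which read a regulator active in oligodendrocytes, differed by 1.09 (SE 0.32), 0.95 (SE 0.56), 0.31 (SE 0.40), 0.25 (SE 0.44) and -0.30 (SE 0.38). Only the first of them had no overlap between the genotypes. The probe at 0.95 read 5.60, 5.88, 7.66 and 7.88 in wildtype samples, so that 1 wildtype array alone stood low. Tardbp differed by 1.02 (SE 0.35) with no overlap and by -0.091 (SE 0.49) with overlap. Sums for the oligodendrocyte markers given above were also higher in heterozygous samples, with 4 of the 6 genes higher. Their part in the Qk readings was not tested.

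Of 20 probes of the kinases, the phosphatase regulator and the importin that act on SR proteins, 12 were higher and 8 lower, with a median of 0.14 and 2 higher at that level (10% of them, against 3.83% of all probes). Tnpo3, the importin of SR proteins, read 11.10, 11.04, 11.35 and 11.36 in heterozygous samples and 10.09, 9.67, 10.39 and 10.37 in wildtype samples, a difference of 1.08 (SE 0.31). Srpk2, an SR protein kinase, read 11.66, 11.72, 12.55 and 12.53 in heterozygous samples and 10.93, 10.41, 11.53 and 11.42 in wildtype samples, a difference of 1.04 (SE 0.42). In this list 6 probes were higher with no overlap and 1 lower, against 7.85% and 9.09% of all probes.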

How the data were processed

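Own-channel values of 8 samples on 4 two-colour arrays were used. The deposited scanner files give spot and local background intensity per channel from Agilent Feature Extraction 11.0.1.1, and processed intensities after that software's background subtraction, detrending and dye normalization, per the file headers. The authors' deposited value table is a linear ratio, the net median signal over its column median. This was found by comparison with the scanner values (100% equal within rounding) and is stated by no header or label. Each column's median was 1, with no centring across samples, and 10844 to 14151 cells were empty in Cy5 columns. From the deposited intensities, log2 values were then calculated.

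Background was corrected with normexp (offset 50), then within-array loess and between-array Aquantile normalization, in limma 3.58.1 (R 4.3.3). Control spots and outlier spots were left out and spots of a probe averaged. Testing needed a probe well above background in 4 samples or more, with a value in all 8. Each probe kept its own row. The limma fit (lmFit, eBayes) had dye as covariate and array as random block (correlation 0.809), was adjusted by Benjamini-Hochberg at 0.05 and tested on simulated data, where it made more false calls than the threshold allows when array variances differed between probes. For single probes, exact two-sided permutation tests were run. The depth is the signal over background, and the number of arrays limits the precision.

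The members and lists were chosen with earlier results of these data known. Named genes are Puf60, the 5 probes of lowest unadjusted p per class, all probes of 19 fixed genes, genes whose probes differ by over 1, up to 3 genes per other list, and Brd2. Other members are named to account for every gene or because their groups did not overlap, chosen after their values were seen. Of 99 probes, 89 named transcripts matched RefSeq (GRCm38.p6, names only). Coordinates are on mm9, per the file headers; exon and UTR annotation was not used here. The sequence of 1 probe is not reported here. There were 27 alternatives.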

Additional observations from a re-analysis of the deposited data

Results flagged for a closer look

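In 3 of 120 groups of 4 samples examined (the probes named by rule, each genotype), 1 sample lay far from the other 3. About 1 group in 20 does so by chance. U2af1 (A_51_P364786) read 7.85 in wildtype replicate 2, against 8.86 to 9.06 in the other wildtype samples. Sfrs18 (A_55_P2022499) read 9.84 in heterozygous replicate 4, against 10.74 to 10.87 in the other heterozygous samples. Hnrnpul1 (A_52_P573366) read 7.04 in heterozygous replicate 1, against 6.95 to 6.96 in the other heterozygous samples, a small gap in a narrow group.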

How the results depend on the processing

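Puf60 was lower in heterozygous samples under all 27 alternatives, from -1.48 to -1.03, and passed the test only without the array block (adjusted p = 0.0201; 0.0201 to 1.00 over the alternatives). Treating all mice as independent in that way gave 550 probes past the test and 3885 at an unadjusted p under 0.05 in all, 2 members past it (Puf60 and Hnrnpul1) and 7 members higher at an unadjusted p under 0.05; Lsm2, Sugp1, Ccar1, Tnpo3 and Brd2 (A_55_P1953545) then also passed. The scanner software's processed signals had a median of -0.53 over all probes and moved every list down, to -0.49 for all members, -0.36 core snRNP, -0.88 SF3a, SF3b, U2AF and Puf60, -0.62 SR, -0.39 hnRNP, -0.43 other snRNP, -0.50 other splicing factors, -0.49 other regulators and -0.37 kinases. Relative to all probes, the 4 class medians were 0.17, -0.35, -0.092 and 0.13 there. That setting gave 0 members higher and 10 lower at an unadjusted p under 0.05 and 3 genes with opposite probe signs, and made 14 of 60 named probes negative that were otherwise positive, among them Snrnp27 (-0.0409) and Sugp1 (-0.0156), which relative to the median of all probes stayed positive (0.48 and 0.51). Relative to that median, 4 of the 60 changed sign. With flagged spots kept, 14 genes had opposite probe signs and 7 members were higher at that level. With probes above background in all 8 samples, 5 genes had opposite signs. The count of members higher was 1 with Cy5 samples only, with the channels of an array averaged and with median centring, 5 with the authors' value table (1 probe past the test in all) and 6 without the dim filter, which gave 2860 probes in all at that level and an SR median of 0.00467. The hnRNP median was 0.0149 with Cy3 samples only. Removing the surface trend gave 746 probes at an unadjusted p under 0.05, 3 members lower and an other snRNP median of 0.0683. The causes were not tested, except that fewer or more probes or samples entered by construction.

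Leaving out 1 sample or array in turn, 0 to 23 probes passed (22 and 23 without the wildtype array of replicates 1 and 2 or of 3 and 4, 5 without the heterozygous array of replicates 3 and 4, 1 without wildtype replicate 4), 1074 to 3161 (without the array of wildtype replicates 1 and 2) had an unadjusted p under 0.05, 0 to 1 members passed (Snrpa1, without the array of wildtype replicates 1 and 2), 1 to 8 members (8 without that array, 1 without heterozygous replicate 2 or 4, wildtype replicate 3 or the array of heterozygous replicates 1 and 2) were higher and 4 to 8 lower at an unadjusted p under 0.05, and 7 to 10 genes had opposite probe signs. Medians ranged from -0.0888 to 0.0609 (members), -0.00263 to 0.37 (core snRNP), -0.37 to -0.00515 (SF3a, SF3b, U2AF and Puf60), -0.32 to 0.0369 (SR), -0.0460 to 0.15 (hnRNP), -0.0391 to 0.0855 (other snRNP), -0.0434 to 0.18 (other factors), -0.0692 to 0.0665 (other regulators) and 0.0999 to 0.40 (kinases). Deviations of same-numbered replicates correlated at 0.040, 0.26, 0.16 and 0.12, those of differently numbered ones at -0.23 to 0.22, and not every sample correlated best with its own number. As 1 of the 4 pairs was under 0.1, the numbers were not taken to pair the mice. With the replicate block, 0 probes passed, 2096 had an unadjusted p under 0.05, and 3 members were higher and 6 lower. Over all alternatives, 348 counts and medians stayed within 1.5 times the count or within the spread of the median between samples, and 56 did not.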
